A study of Mus musculus with 7 samples.

Results

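Actins are the proteins of the thin filaments that shape a cell, carry its contractions and anchor its junctions. Mammals have a pair of cytoplasmic actins, β-actin (*Actb*) and γ-actin (*Actg1*), which are made in nearly every cell type, and a group of muscle actins, comprising the skeletal α-actin *Acta1*, the cardiac α-actin *Actc1*, the vascular smooth muscle α-actin *Acta2* and the enteric smooth muscle γ-actin *Actg2*. In the growing oocyte, cytoplasmic actin forms the cortex under the plasma membrane and later moves the spindle, and actin filaments also fill the processes that granulosa cells send through the zona pellucida to the oocyte. β-actin was also the gene to which qRT-PCR levels were normalized in the study of these oocytes. The 6 genes were chosen by name with their levels known, *Actb* for its higher mean in *Mfn1*-/- oocytes, so their levels below are a description and carry no test.

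Expression was measured by RNA-seq in secondary follicle-enclosed oocytes of 8-week-old C57BL/6J mice, in 4 WT and 3 *Mfn1*-/- libraries of 5 pooled oocytes each. The *Mfn1*-/- mice were *Mfn1* fl/fl animals carrying a Cre driven by the *Zp3* promoter, which is active in growing oocytes, and the WT mice were littermates. The table used here has 1 mean of normalized counts per genotype for 22877 genes, so no spread between libraries, depth or error can be given for any value below. Of the 6 actins, *Actb*, *Actg1*, *Acta1* and *Actg2* have a row, and the levels of *Acta2* and *Actc1* were not analysed here.

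The deleted gene, *Mfn1*, had a mean of 0.616 normalized counts in WT and 0.0577 in *Mfn1*-/- oocytes. Oocyte genes were high in both genotypes, with *Ooep*, of the subcortical maternal complex, at 1120 in WT and 1310 in *Mfn1*-/-, and *Zp3*, of the zona pellucida, at 609 and 708. All 12 oocyte genes listed had a row, and 0 of them differed by more than 2-fold, beside 7.61% of all genes. Nothing is read from that count. The log2 fold change of *Mfn1*-/- over WT, computed with 0.1 added to each mean, had a median of 0.04 over all genes and 0.16 over the 6226 expressed genes, those whose mean over the 7 libraries reached 1, so a typical expressed gene lies slightly above 0.

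The 6 actins are coded on different chromosomes and resemble each other closely. The first 60 bases of each coding sequence are shown because the isoforms differ there more than over the rest of the coding sequence, and capitals mark bases that differ from *Actb* in an alignment of the whole coding sequences (GENCODE M21 transcripts, GRCm38, 5′ to 3′ on the minus strand, exon 2 in every gene):
Actb, chr5:142905627-142905686: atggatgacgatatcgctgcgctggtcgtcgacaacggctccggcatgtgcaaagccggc
Actg1, chr11:120348032-120348091: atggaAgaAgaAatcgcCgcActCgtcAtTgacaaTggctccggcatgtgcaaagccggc
Acta1, chr8:123893638-123893697: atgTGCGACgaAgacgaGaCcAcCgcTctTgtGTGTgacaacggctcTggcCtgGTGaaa
Acta2, chr19:34252494-34252553: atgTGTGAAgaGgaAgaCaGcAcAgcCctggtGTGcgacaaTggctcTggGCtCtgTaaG
Actc1, chr2:114051972-114052031: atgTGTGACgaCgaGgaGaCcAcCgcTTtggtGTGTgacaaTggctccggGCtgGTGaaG
Actg2, chr6:83527382-83527441: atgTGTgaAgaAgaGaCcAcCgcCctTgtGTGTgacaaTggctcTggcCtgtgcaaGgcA

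Within these 60 bases, *Actg1* differed from *Actb* at 9 positions and the muscle actins at 20 to 25. Over the whole coding sequence there were 128 differences for *Actg1* and 172 to 194 for the muscle actins. *Actb* and *Actg1*, of 375 codons each, were 88.6% identical there and 44.9% identical after the stop codon, while *Actb* was 82.8% to 84.8% identical to the muscle actins. The transcripts measure 1920 bases for *Actb*, 1952 for *Actg1*, 1446 for *Acta1* and 1333 for *Actg2*.

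Both cytoplasmic actins were abundant and both had a higher mean in *Mfn1*-/- oocytes on the authors' scale, by unequal amounts, although *Actg1* was lower, at -0.17 on the log2 scale, relative to the median of the qRT-PCR reference genes. *Actb*, on chromosome 5 from 142903115 to 142906754, had a mean of 13.7 normalized counts in WT and 28.4 in *Mfn1*-/-, a ratio of 2.07 and a log2 fold change of 1.05. *Actg1*, on chromosome 11 from 120345690 to 120348542, had means of 41.8 in WT and 47.8 in *Mfn1*-/-, a ratio of 1.14 and a log2 fold change of 0.19, close to the median of expressed genes. *Actg1* was the more abundant of the pair in both genotypes, at rank 582 of the table by mean, with *Actb* at rank 1126.

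The muscle actins had means under 1, at rank 12169 of the table for *Actg2* and 18810 for *Acta1*, and both had a lower mean in *Mfn1*-/- oocytes. *Actg2*, on chromosome 6 from 83512905 to 83536265, had means of 0.229 in WT and 0.0621 in *Mfn1*-/-, a log2 fold change of -1.02. *Acta1*, on chromosome 8 from 123891769 to 123894751, had a mean of 0.0358 in WT, and in *Mfn1*-/- it was listed at 0.01, the lowest value in the table, which 937 genes have in that genotype. Its log2 fold change of -0.30 is set mostly by the 0.1 added to each mean, and *Acta1* also overlaps *Gm20388* on the opposite strand, with the strand setting of the counting not given in the sources used here. The order of levels was *Actg1*, *Actb*, *Actg2* and *Acta1* in both genotypes, and without values of single libraries it cannot be said which neighbours in that order differ beyond their spread.

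**Figure D1:**
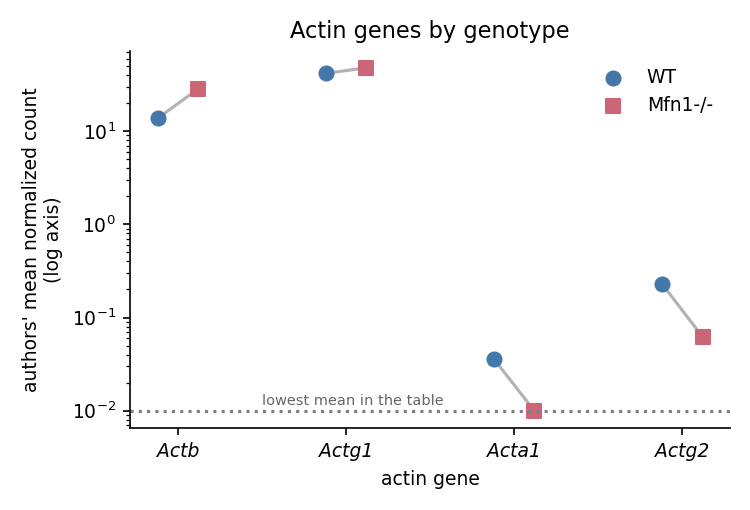
Authors' mean normalized count of the 4 actin genes with a row (log axis), WT as circles and Mfn1-/- as squares, 1 mean per genotype with no error available. Both cytoplasmic actins lie above 10 and are higher in Mfn1-/- on the authors' scale, Actb with 28.4 against 13.7, while both muscle actins lie under 1 and are lower, Acta1 at the lowest mean in the table (0.01, dotted line).

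A difference of more than 2-fold, the fold threshold of the study's methods, was passed, with 0.1 added to each mean, by *Actb* upwards and by *Actg2* downwards. *Acta1* passed it only on the means as deposited or with 0.01 added, where its *Mfn1*-/- value is the lowest of the table. Over all genes, 4.87% were higher and 2.75% lower by more than 2-fold, 7.61% in either direction. These shares depend on the level: among the 1849 genes whose mean reached 10, where *Actb* lies, 2.97% were higher, and among the 7604 genes with a mean from 0.1 to under 1, where *Actg2* lies, 5.05% were lower. The same measure was used to choose the genes, so nothing is read from the 1 of 4 in each direction.

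The call of *Actb* depended on how the values were scaled and on the constant added, and that of *Actg2* on the constant. The log2 fold change of *Actb* was 0.92 when each mean was expressed as a share of its genotype's summed means and 0.89 relative to the median expressed gene, both short of 2-fold. That of *Actg2* was -1.09 and -1.18 under these scalings, and -0.21 with 1 in place of 0.1 added to each mean. With 1 added, *Actb* stood at 1.00 and did not pass 2-fold.

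**Figure D2:**
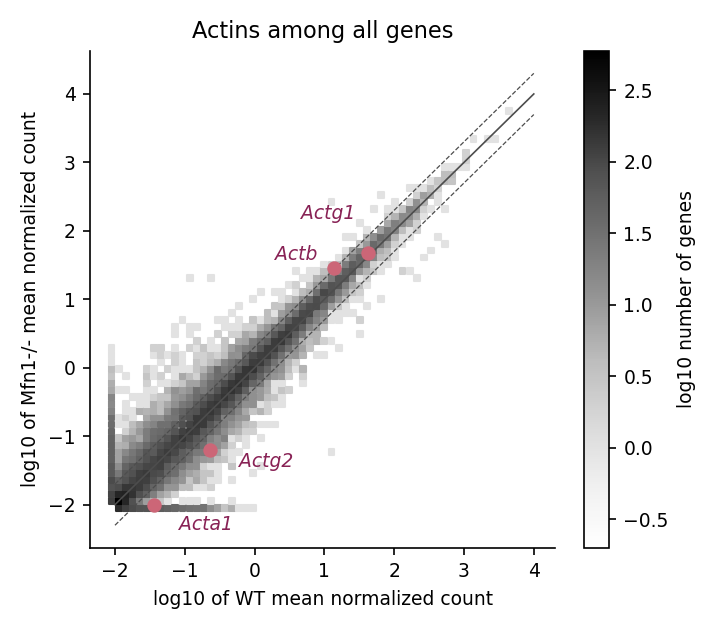
Mean normalized count in Mfn1-/- against WT oocytes for all 22877 genes, on log10 axes, with grey squares shaded by the number of genes they hold, the solid line marking equal means and the dashed lines a 2-fold difference. Actb lies just above the upper dashed line, Actg1 near the solid line, Actg2 and Acta1 below the lower dashed line, no constant being added here, where the means are under 1 and the cloud of genes is wide.

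Summed over their members, the cytoplasmic actins had 55.5 normalized counts in WT and 76.2 in *Mfn1*-/-, a ratio of 1.37. Of that difference of 20.7, *Actb* made up 71.0% and *Actg1* 29.0%. The share of *Actb* in the pair was therefore 24.7% in WT and 37.3% in *Mfn1*-/- oocytes, and the ratio of *Actb* to *Actg1* was 0.328 and 0.594. Their transcripts are of nearly the same length, so this ratio depends little on whether the authors' values were scaled by length, which the paper does not say. Low values did fall with gene length: the smallest WT means exceeded the lowest mean of the table by 0.0059 (5th percentile) in the 5271 genes with the least exonic sequence, of median length 813 bases, and by 0.0012 in the 5267 with the most, of median length 7900 bases.

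The muscle actins with a row summed to 0.265 in WT and 0.0721 in *Mfn1*-/-, a ratio of 0.272. The cytoplasmic pair exceeded them 210-fold in WT and 1060-fold in *Mfn1*-/- oocytes, and made up 99.525% and 99.905% of the summed actins. Cytoplasmic and muscle actins thus differed in direction, with a log2 fold change of 0.46 for the former and -1.08 for the latter, the latter resting on means under 1 and mostly on *Actg2*.

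The actins also differ in how far a single 75-base read can be assigned to them by exact sequence. The paper's reads were paired, and the mate of a read was not taken into account here, nor were near matches. Each transcript was cut into all windows of 75 bases, the read length, and each window was searched in the transcripts of every other gene of GENCODE M21. Of the windows of *Actg1*, 54.5% (1023 of 1878) also occur in another gene, and 1020 of its 1051 windows inside the coding sequence do. For *Actb* the share was 2.6% (48 of 1846), for *Acta1* it was 0.437%, and for *Acta2*, *Actc1* and *Actg2* it was 0. Only 3 windows, shared by *Actb* and *Acta1*, join any pair of the 6 actins, so nearly all the sharing is with other genes.

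**Figure D3:**
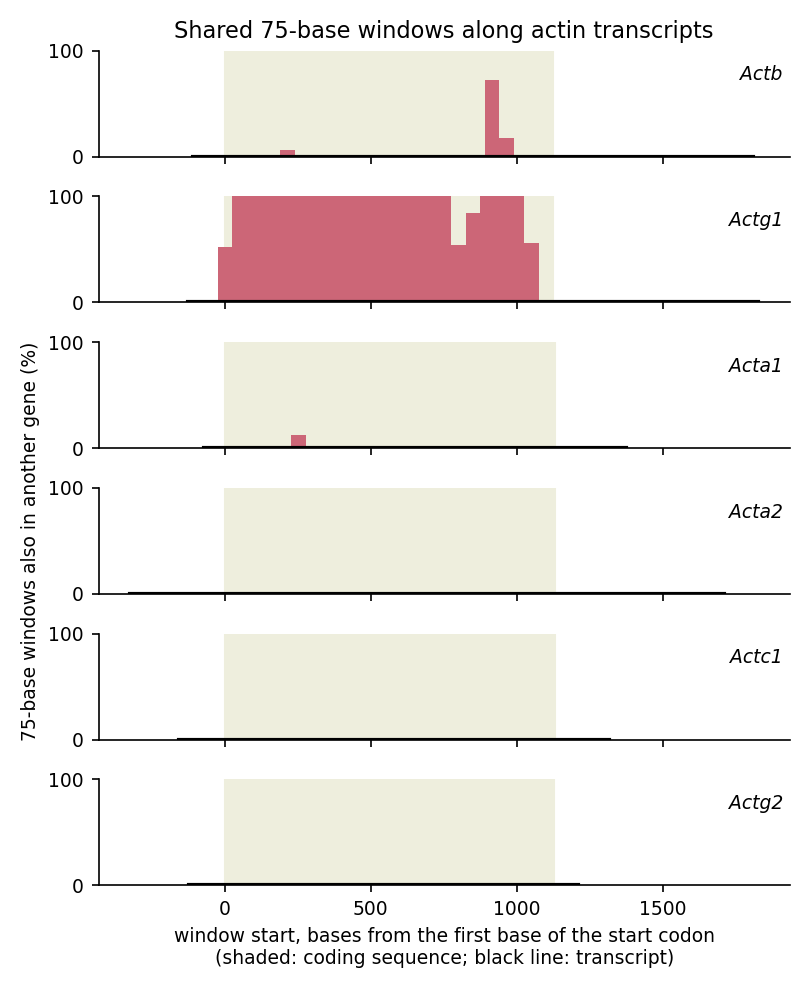
Share of 75-base windows that also occur exactly in a transcript of another gene, in steps of 50 bases along the transcript of each actin, with the coding sequence shaded and position counted in bases from the start codon. In Actg1 1020 of the 1051 windows within the coding sequence are shared and none that start after it, in Actb the shared windows are 1 short stretch late in the coding sequence and 3 windows early in it, and Acta2, Actc1 and Actg2 have none.

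The genes that share windows with *Actg1* are mostly processed pseudogenes, which are copies of its mRNA inserted elsewhere in the genome. *Gm12715*, on chromosome 4 from 103563402 to 103564529, holds 898 of the windows and differs from the *Actg1* coding sequence at 4 of 1125 bases. Its start is shown to compare with the lines above, and it has 0 differences from *Actg1* in the 60 bases, capitals being reserved for such differences:
Gm12715, chr4:103563402-103563461, plus strand: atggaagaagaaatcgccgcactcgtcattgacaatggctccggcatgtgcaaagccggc

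In the table, *Gm12715* had means of 28.5 normalized counts in WT and 44.5 in *Mfn1*-/-, a level comparable with that of *Actg1* itself, and a log2 fold change of 0.64. *Gm8399*, with 502 shared windows, had means of 6.03 and 7.57, and *Actg-ps1*, with 200, had 0.357 and 0.688. Altogether 5 such pseudogenes have a row, and all 5 had a higher mean in *Mfn1*-/- than in WT. Of these, *Gm6375* had only 0.0894 in WT and 0.17 in *Mfn1*-/-, and *Gm12003* had 0.01, the lowest value of all genes, and 0.0427. Nothing is read from the shared direction, since the median expressed gene also lay above 0, at 0.16. The 5 pseudogenes summed to 35 in WT and 53 in *Mfn1*-/-, a ratio of 1.51. How the authors counted reads that match several genes is not given in the sources used here, so reads of *Actg1* may stand in these rows and theirs in *Actg1*, which was not tested.

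When *Actg1* was summed with its pseudogenes, a step chosen after seeing the data, it reached 76.8 in WT and 101 in *Mfn1*-/-, a ratio of 1.31 and a log2 fold change of 0.39. *Actb* has a counterpart in *Gm15725*, a transcribed pseudogene inside *Lrrc58* on chromosome 16. The 2 match over 1133 bases at 91.8% identity. An exact run of 119 bases is shared, from base 906 to base 1024 of the *Actb* coding sequence. *Gm15725* had means of 1.87 in WT and 3.77 in *Mfn1*-/-, a ratio of 2.02, and *Lrrc58*, whose transcript holds the same run, had 0.395 and 0.742. With *Gm15725* added, *Actb* had a log2 fold change of 1.04. The share of *Actb* in the cytoplasmic actins was 16.9% in WT and 24.2% in *Mfn1*-/- oocytes once all these pseudogenes were counted, so the shift towards *Actb* was present but smaller.

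Since *Actb* served as the qRT-PCR reference, its level was set beside those of other genes in common use for that purpose. All 18 reference genes listed have a row, and the 15 with a mean of at least 1 had log2 fold changes from 0.02 for *Ywhaz*, a 14-3-3 protein, to 1.24 for *H2afz*, the histone variant H2A.Z. All 15 lay above 0 on the authors' scale, while 5 lay below 0 relative to the median expressed gene and 4 as shares of the summed means. *Actb*, at 1.05, exceeded 14 of the 15 and came after *H2afz* alone. *H2afz* had means of 38.1 in WT and 89.9 in *Mfn1*-/- and was the only one of the 15 past 2-fold, beside 7.61% of all genes. *Actb* was chosen for its higher mean in *Mfn1*-/- oocytes, so nothing is read from its rank.

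*Sdha*, a subunit of respiratory complex II, had a log2 fold change of 0.67, and the tubulin gene *Tubb5* had 0.61. *Tbp*, the TATA-binding protein, had 0.45, and *Hprt*, of purine salvage, and the ribosomal protein gene *Rps18* had 0.36 each. *Gapdh*, of glycolysis, had means of 4.26 in WT and 5.26 in *Mfn1*-/- and a log2 fold change of 0.30.

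The smallest differences were those of the ribosomal protein genes *Rpl19* (0.22) and *Rplp0* (0.09), the elongation factor gene *Eef1a1* (0.14), the cyclophilin gene *Ppia* (0.12), *B2m* (0.08), which codes for β2-microglobulin, and *Ywhaz*. *Actg1*, at 0.19, lay among these. The median of the 15 was 0.36, and relative to it *Actb* was higher by 0.68 on the log2 scale and *Actg1* lower, at -0.17.

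**Figure D4:**
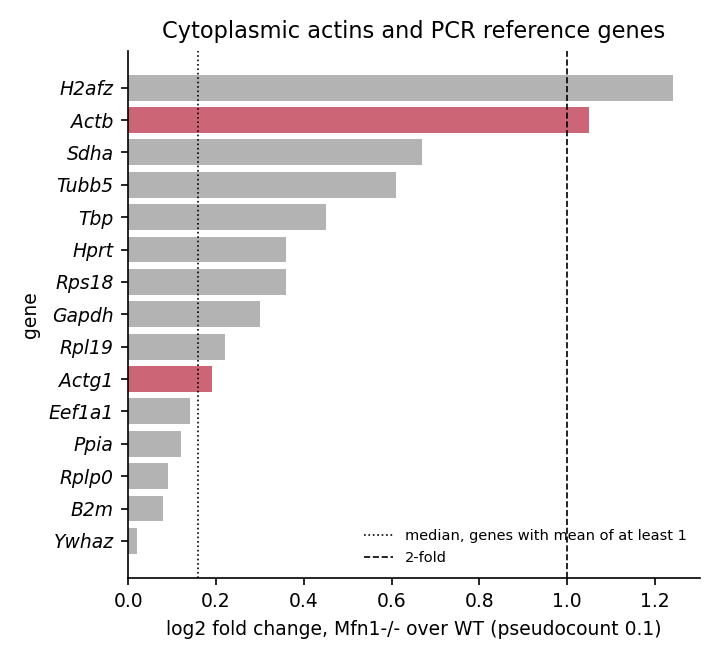
Log2 fold change of Mfn1-/- over WT oocytes (0.1 added to each mean) for the cytoplasmic actins, coloured, and 13 of the 15 quantitative PCR reference genes with a mean of at least 1, grey, with the median of expressed genes (0.16, dotted) and a 2-fold difference (dashed). Only H2afz (1.24) and Actb (1.05) reach past the dashed line, and Actg1 (0.19) sits near the dotted one.

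The β-actin primers of the study are shown because they determine which actin that primer pair reads. The study also lists a predesigned β-actin probe assay, which was not analysed here. Both match the *Actb* coding sequence exactly (GRCm38), the forward primer in exon 2 and the reverse primer in exon 3, and they enclose an amplicon of 154 bases in the mRNA. Capitals in the *Actg1* and *Actg2* lines mark bases of the site, read in the direction of the primer, that differ from it:
Forward primer, chr5:142905584-142905603: ggctgtattcccctccatcg
Forward site in Actg1, chr11:120347989-120348008: ggcCgtGttcccTtccatcg
Forward site in Actg2, chr6:83527336-83527355: ggctgtCttcccctccatTg
Reverse primer, chr5:142905363-142905384: ccagttggtaacaatgccatgt
Reverse site in Actg1, chr11:120347762-120347783: ccagttAgtGacaatgccGtgt
Reverse site in Actg2, chr6:83526821-83526842: ccagttggtGaTGatgccatgt

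Each primer had from 2 to 4 mismatches at its best site in the 5 other actins, with 3 in *Actg1* for both. An exact site for the forward primer was found in the transcripts of 1 gene of GENCODE M21, *Actb*, and the same held for the reverse primer.

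Actin genes are classical targets of the transcription factor SRF, which binds the CArG box and is activated through actin-sensing cofactors when free actin runs low. Promoter windows of 300 bases that span the start site were available from RefSeq (GRCm38.p6) for *Actg1*, *Acta1*, *Acta2* and *Actc1*. A CArG box (either strand, the pattern being its own reverse complement) was present in *Actg1* as CCATATATGG, starting 90 bases before the start site, in *Acta1* as CCAAATATGG at 73 bases before it and in *Actc1* as CCAAATAAGG at 47 bases before it. These distances are from the RefSeq start sites, and the *Actc1* box lies inside the span of the GENCODE M21 transcript, which begins further upstream, at 114053548 on chromosome 2. Of all 32851 promoter windows, 1.63% hold a CArG box. The hexamer TATAAA, searched on both strands, was present in *Acta1* and *Actc1* and in 13.6% of all windows. *Actg1* and *Acta1*, which both hold a CArG box, had log2 fold changes of 0.19 and -0.30.

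*Srf* itself had means of 1.53 in WT and 1.81 in *Mfn1*-/- oocytes, and its cofactor gene *Mkl2* had 0.212 and 0.138. Of the 18 other SRF target genes with a row, 1 was higher and 1 lower by more than 2-fold, beside 4.87% and 2.75% of all genes, with a median log2 fold change of 0.05. The first was *Zyx*, which codes for the focal adhesion protein zyxin, at 0.248 in WT and 1.03 in *Mfn1*-/-, and the second was the immediate early gene *Fos*, at 0.23 and 0.0566. Of these 18 genes, 10 had a mean under 0.1, where the 0.1 added draws the log2 fold change towards 0, so nothing is read from that median. Relative to the median expressed gene, 1 was higher and 2 lower, beside 818 and 916 of all 22877 genes. With 0.01 added, 2 were higher and 2 lower, beside 2395 and 1516 of all genes. Nothing is read from these counts.

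Genes of families linked to actin were counted against the 7.61% of all genes past 2-fold in either direction. Of the 11 actin-related and actin-like genes with a row, *Actr1b*, which codes for a subunit of the dynactin complex, was the only one past 2-fold, with means of 0.275 in WT and 1.05 in *Mfn1*-/- and a log2 fold change of 1.62. The list had a median of 0.14, which became -0.02 relative to the median expressed gene. Of the 12 genes from families of actin monomer-binding proteins, *Pfn4*, of the profilin family, was the only one past 2-fold. It was lower, with 2.3 in WT and 0.982 in *Mfn1*-/-, and the median of the list was -0.07.

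Of the 17 genes for the chaperonin, prefoldin and enzymes that fold and modify actin, 0 passed 2-fold either way, beside 7.61% of all genes. On the authors' scale, where the median expressed gene lay at 0.16, 15 of the 17 had a log2 fold change above 0. The median of the list, 0.26, became 0.10 relative to the median expressed gene, so nothing is read from that count. The most abundant of the 17 were *Pfdn6*, a prefoldin subunit, at 60.9 in WT and 63.2 in *Mfn1*-/-, and *Cct5*, a chaperonin subunit, at 49.2 and 48.5.

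The muscle actins were read beside genes of the cells that make them. By more than 2-fold, 2.75% of all genes were lower, and 5.05% of those with a mean from 0.1 to under 1. Of the 7 smooth muscle genes with a row, 1 was lower by that much, *Myh11*, the smooth muscle myosin heavy chain, at 0.305 in WT and 0.0879 in *Mfn1*-/-. The list summed to 3.66 in WT and 2.01 in *Mfn1*-/-, most of it from *Cnn1*, a calponin singled out after its values were seen, at 3.01 and 1.56. The range was from 0.01 to 3.01 in WT and from 0.0109 to 1.56 in *Mfn1*-/-, and *Tagln* and *Des* were not analysed here. Of the 14 striated muscle genes with a row, 1 was lower by more than 2-fold, *Myh2*, a skeletal myosin heavy chain, at 1.56 and 0.704, and the list summed to 7.55 and 5.03, with the highest level in *Tnni3*, the cardiac troponin I gene, likewise singled out after its values were seen, at 4.19 and 2.19. Relative to the median expressed gene, 2 smooth muscle and 3 striated muscle genes were lower by more than 2-fold. Under that scaling, 916 of all 22877 genes were lower by that much. The log2 fold change lay above 0 in 4 of the 7 smooth muscle and 6 of the 14 striated muscle genes, with medians of 0.00 and -0.03, so the lower sums rest on few genes. The part of muscle-type cells in the values of *Actg2* and *Acta1* was not tested. In such pooled samples, fewer cells of a type and less RNA per cell cannot be told apart.

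Granulosa, theca and stroma genes were low beside the oocyte genes. The 12 granulosa cell genes with a row summed to 1.72 in WT and 2.38 in *Mfn1*-/-, against 2940 and 3360 for the 12 oocyte genes. With 0.1 added to each mean 0 of the 12 granulosa genes passed 2-fold, beside 7.61% of all genes. With 0.01 added 1 was higher and 2 were lower, beside 2395 and 1516 of all 22877 genes. Of the 12 genes, 8 had a mean under 0.1, where the 0.1 added draws the log2 fold change towards 0. Nothing is read from these counts. *Inha*, the inhibin α-subunit, was the highest of the 12, at 0.954 in WT and 1.87 in *Mfn1*-/-, and *Cyp19a1*, aromatase, had 0.193 and 0.0846. The log2 fold change lay above 0 in 4 of the 12 granulosa genes and below 0 in 8, with a median of -0.02. The higher granulosa sum in *Mfn1*-/- therefore rests on *Inha*. The 6 theca and stroma genes with a row summed to 0.221 and 0.223, with *Star*, which carries cholesterol into mitochondria, at 0.105 and 0.0845. Granulosa cells also express *Actb* and *Actg1*, and their part in the higher mean of *Actb* was not tested.

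The genes whose pair of means lay closest to that of *Actb*, by distance on the log2 scale over the 2 genotype means, were *Atp5g3*, of the mitochondrial ATP synthase, with 14.3 in WT and 29.3 in *Mfn1*-/-, *Hmgn2*, a nucleosome-binding protein gene, with 12.9 and 26.9, *Gm10108* with 13.9 and 30.9, *Gm10774* with 15.4 and 26.9 and *Gpx6* with 14.5 and 24.6. Those closest to *Actg1* were *Gm9761*, *Rpl4*, which codes for a ribosomal protein and had 41.4 and 48.2, *Gm12669*, *Gm5641* and *Sssca1*. With only 2 values per gene, such likeness says little beyond the level and the ratio.

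**Figure D5:**
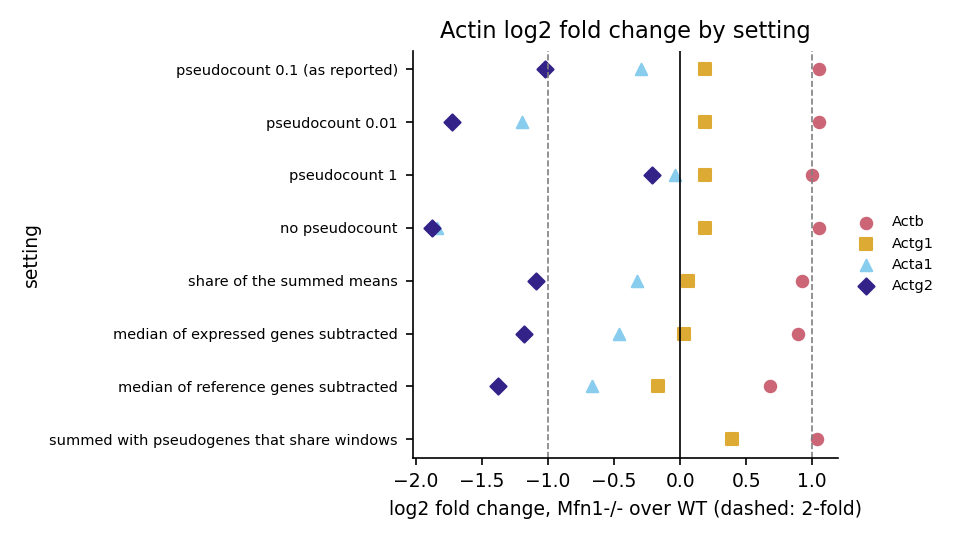
Log2 fold change of Mfn1-/- over WT oocytes for the 4 actins with a row under each way of adding a constant to, scaling or summing the means, with dashed lines at a 2-fold difference. Actb stays between 0.68 and 1.05 and Actg1 between -0.17 and 0.39, while Actg2 ranges from -1.88 to -0.21 and Acta1 from -1.84 to -0.04, since their means are of the size of the constant.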

How the data were processed

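Adapters were removed by the authors using Cutadapt and poor reads using the FASTX-Toolkit, and gene counts came from STAR alignments (GRCm38/mm10). The deposited signal is the genotype mean of normalized counts with the total over libraries, whose scale and annotation are not given in the sources used here. That total equaled 3 *Mfn1*-/- means plus 4 WT means within 1% in 100% of genes, so all 7 libraries entered, although the design text gives n = 3 for each genotype. The columns with the authors' own ratio, fold change, p-value and FDR were not used, and no test could be run on genotype means.

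Log2 fold changes were computed from the means with 0.1 added to each (the pseudocount), so those of low genes are understated, and a 2-fold difference was called. The code was tested on simulated data. The members and gene lists were chosen with earlier results of these data known. Named are the actins, *Mfn1*, and from each list up to 6 genes past 2-fold with a mean of at least 0.1 in 1 genotype, or else its 2 most abundant, reference genes with a mean of at least 1 (2 of the 15 are counted but not reported here), the 5 genes closest to each cytoplasmic actin, and genes near-identical to an actin. *Cnn1*, *Tnni3* and the genes sharing exact 75-base windows were named after their values were seen. Transcripts came from GENCODE M21 (95.9% of gene names found). Alternatives were other pseudocounts, minimum means, scalings and a fold of 1.5. Python 3.11.15, numpy 2.4.6, pandas 2.3.3, Biopython 1.88, blastn 2.17.0 and matplotlib 3.10.9 were used.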

Additional observations from a re-analysis of the deposited data

How the results depend on the processing

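The log2 fold change of *Actb* did not pass 2-fold with a pseudocount of 1 (1.00), as a share of summed means (0.92) or relative to the median expressed gene (0.89). Nor did it pass relative to the median reference gene (0.68), a setting chosen after seeing the data, when *Actg1* also turned to -0.17. With a pseudocount of 1, *Actg2* (-0.21) and the summed muscle actins (-0.24) fell short, while *Acta1* passed with a pseudocount of 0.01 (-1.20) or none (-1.84). The cause is the size of the constant beside means under 1. A pseudocount cannot change a sign. Under the scalings, which can, the cytoplasmic and muscle sums kept opposite signs, at 0.09 and -1.45 relative to the median reference gene. The genes were chosen with these values known, so nothing is read from that difference in direction.

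The 1741 genes past 2-fold became 3911 with a pseudocount of 0.01, 4805 with none, 319 with 1, 541 with a minimum mean of 1, and 4409 at a fold of 1.5. Of the 1741, 63.9% were higher, against 53.7% of the 1701 genes past 2-fold as shares. The percentage higher was 47.2% of 1734 relative to the median expressed gene and 27.6% of 1927 relative to the median reference gene. *Acta1* and *Actg2* gave no value at a minimum mean of 1, nor *Acta1* at 0.1. No paired analysis was possible because the columns are genotype means and carry no replicate numbers, and for the same reason no library could be left out.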
